A study of Bos taurus with 2 samples.

Results

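The genes described here encode the proteins of the mitochondrial ribosome, and were taken as every array probe whose accession belongs to a bovine gene with a symbol of MRPL or MRPS followed by a digit. Of 78 such genes in the gene table, 75 were on the array, with 127 probes, among 19554 genes in all that gave a ratio between the arrays. An accession that matched no symbol counted there as a gene of its own. This total and each share over all genes thus include such accessions, some of which may belong to the same gene. The large subunit symbols (MRPL) accounted for 46 genes and 85 probes, and the small subunit symbols (MRPS) for 29 genes and 42 probes. *MRPL36*, *MRPL40* and *MRPL55* matched no probe. All 127 probes were well above background on both arrays, so that no gene entered through 1 group alone.

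The mitochondrial ribosome, or mitoribosome, translates the few messenger RNAs encoded by mitochondrial DNA, all of which specify subunits of the respiratory chain and ATP synthase. Its ribosomal RNAs come from mitochondrial DNA, whereas its proteins are encoded in the nucleus, made in the cytosol and imported. Many of these proteins have counterparts in the bacterial ribosome, and others were added during mitochondrial evolution. Skeletal muscle is rich in mitochondria, and its respiratory capacity depends on this translation system.

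Total RNA came from the *longissimus thoracis* (LT) muscle of Japanese Black fetuses at 8.5 months of gestation (day 260 ± 8.3). The dams of the high-nutrition (HN) group received 120% of their nutritional requirement (6 dams), and those of the low-nutrition (LN) group 60% (5 dams), with no group at the requirement itself. The diets were fed during pregnancy and in a period before it. These group sizes are those of the study's methods, whereas its carcass table gives 5 for HN and 6 for LN. Each array held the pooled RNA of 4 fetuses, which were the heaviest of the HN group and the lightest of the LN group, so diet and the selection by bodyweight (BW) cannot be told apart. With 1 pool and 1 array per group there was no replicate check, no test and no spread between fetuses, and the differences below compare these arrays only.

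Each array had 43803 non-control spots, of which 74.5% in HN and 70.9% in LN were well above background, with no saturated spot. The defining markers of the tissue were present, as 11 of 12 skeletal muscle markers gave a value and the dimmest of them had a log2 signal of 11.12. The summed signal of these muscle markers was 843858 in HN and 807003 in LN, and their median log2 LN/HN was -0.14 (2 higher, 8 lower and 1 equal), and between -0.15 and -0.037 in the other settings. The equal one was *TNNC2* (18.35 on both arrays), as quantile normalization gives probes of the same rank the same value. It is part of both sums. Without normalization 2 of the muscle markers were higher and 9 lower. The 6 fibroblast markers were all higher in LN (log2 LN/HN from 0.11 to 0.42, medians from 0.29 to 0.36 over the settings, summed signal 20771 in HN and 25396 in LN), whereas 5 of 6 endothelial markers were lower (median -0.21, over the settings from -0.26 to -0.18, summed signal 5575 and 4415). The other endothelial marker, *VWF* (0.024), turned sign in 8 of 11 other settings. Among 5 leukocyte markers, 4 gave a value (median -0.14, over the settings from -0.22 to -0.094, summed signal 1096 and 1027), as did 5 of 7 erythroid markers (median -0.06, from -0.16 to -0.019, 17176 and 17136) and 3 of 5 adipocyte markers (median 0.22, from 0.037 to 0.23, 461 and 570). *SLC4A1*, *LEP* and *ITGAM* were not well above background, and *MYLPF* and *ADIPOQ* matched no probe. These markers describe the cell mixture of the pools, and their part in the values below was not tested. In such bulk RNA, fewer cells of a type and less RNA per cell cannot be told apart.

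The mitoribosomal genes as a whole differed little between the pools. A fold limit was set at an LN signal 25% above HN (0.322 on the log2 scale) and at the same fold below it (LN at 80% of HN). No mitoribosomal gene was past this limit in either direction, whereas 8.85% of all 19554 genes were past it on the higher side and 9.11% on the lower side. *MRPL15*, alone or with *MRPS7*, stood just under the limit and passed it in 5 of the other settings tried. Within this narrow span, 49 genes were higher and 26 lower in LN, or 65.3% higher against 49.3% of all genes. The median log2 LN/HN was 0.039 (interquartile range -0.036 to 0.093, extremes -0.31 and 0.32), against -0.0033 over all genes (interquartile range -0.14 to 0.13).

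The genes were also set beside others of like brightness. The middle part of the mitoribosomal genes had a mean log2 signal of 9.67 to 11.97, a range that held 2777 genes of the array measured on both sides. Of these, 6.7% were past the fold limit in either direction, 49.8% were higher in LN, and the median was -0.00090 with an SD across genes of 0.18. The 37 mitoribosomal genes in the same range had a median of 0.034 and an SD of 0.126, and 23 of them were higher.

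The precision of a single spot was read from 42 probes that were printed in several spots. The log2 ratio of such spots had an SD of 0.0854, which gives a 95% range of 0.167 on the log2 scale, or 1.12-fold. These probes had a median log2 signal of 8.28, dimmer than most of the mitoribosomal probes, and the range is that of 1 spot, whereas 39 of the gene values are means over several probes. It covers the printing and scanning of a spot, not the spread between fetuses, and serves here as a rough guide. Of the 75 genes, 61 lay within it, 7 were higher past it and 7 were lower past it. Over all genes, 20.8% were higher and 21.5% lower past the same range. Among the genes of like signal 26.1% were past it in either direction, beside 1 higher and 4 lower of the 37 mitoribosomal genes in that range. The mitoribosomal genes were thus found mostly inside a range that single spots of 1 probe also cover. The error of a log2 ratio from the signal errors of the scanner software was larger than the spot SD. Its median was 0.204 per mitoribosomal probe, and 113 of the 127 probes lay within 1 such error of 0. A gene past the range of a spot is therefore not shown to be beyond technical error.

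**Figure D1:**
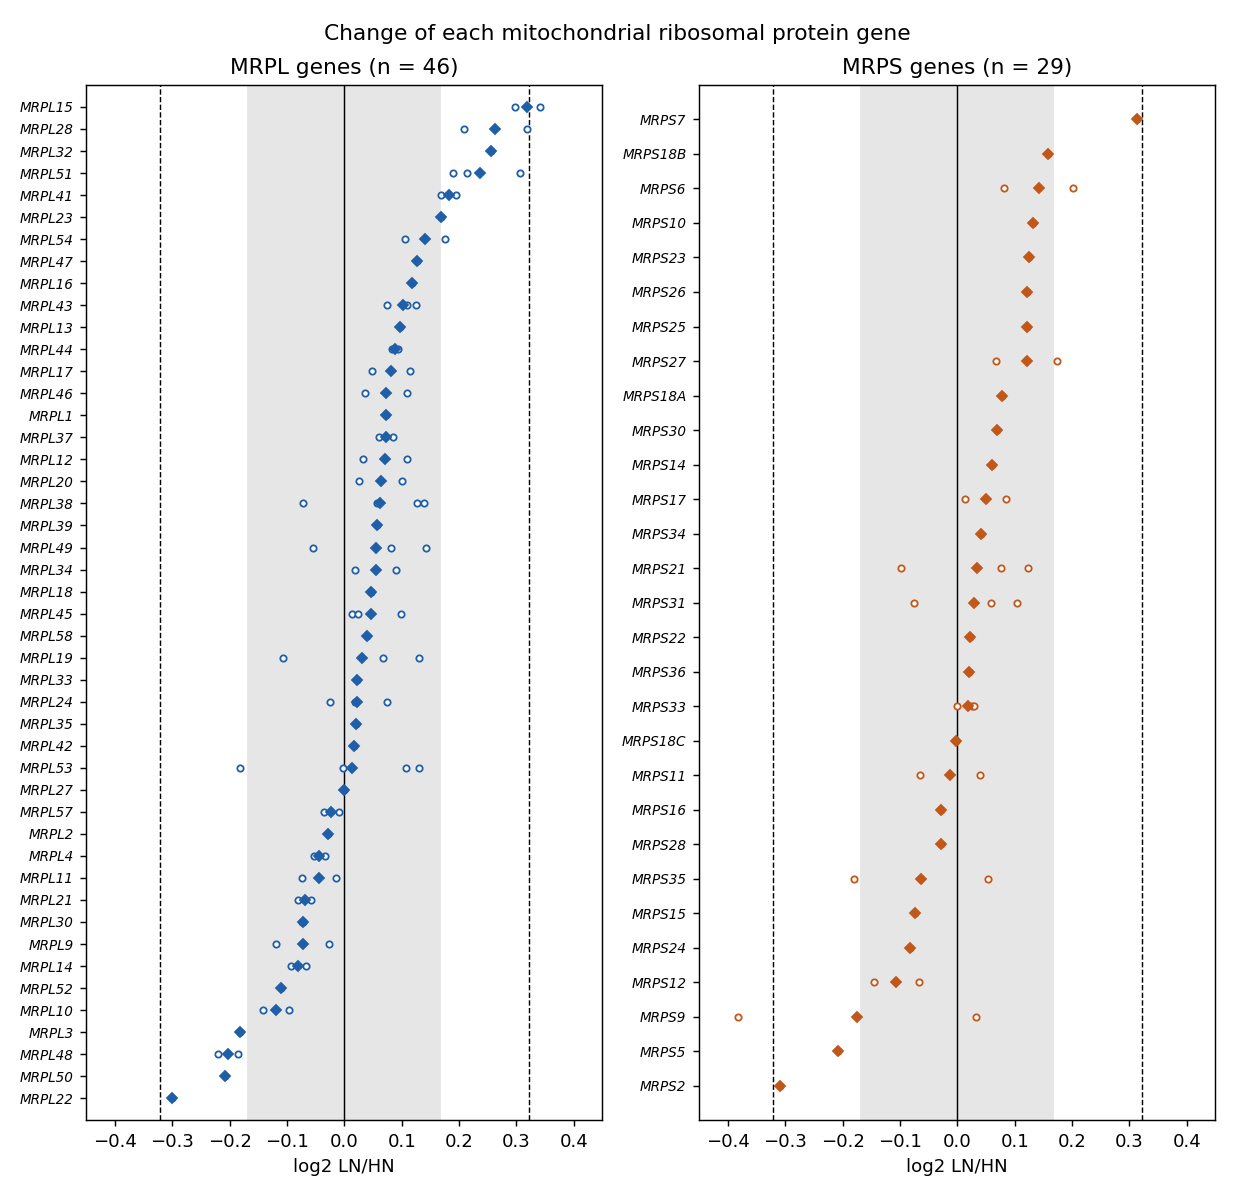
Log2 LN/HN of every MRPL gene (left, 46 genes) and MRPS gene (right, 29 genes), ordered from lowest to highest. Filled diamonds are gene means, open circles single probes, the gray band is the 95% range of a single spot and the dashed lines mark the fold limit, which no diamond passes.

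Both subunits had a median slightly above 0. MRPL genes had a median log2 LN/HN of 0.046 (interquartile range -0.040 to 0.087), with 31 of 46 higher in LN. MRPS genes had a median of 0.029 (interquartile range -0.029 to 0.12), with 18 of 29 higher. The medians differed by 0.017, which could not be tested, and the difference turned to -0.016 when another background correction (normexp) was used. Extremes were also alike, from -0.30 to 0.32 for MRPL and from -0.31 to 0.31 for MRPS. Past the range of a spot were 6 MRPL genes on the higher and 4 on the lower side, and among MRPS genes 1 on the higher and 3 on the lower side.

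Symbols do not follow the subunits in every case. *MRPS18A* and *MRPS30* encode proteins that sit in the large subunit, and *MRPS36* encodes a protein now known as a component of the α-ketoglutarate dehydrogenase complex. *MRPS18A* had log2 signals of 10.35 in HN and 10.43 in LN, *MRPS30* of 9.19 and 9.26, and *MRPS36* of 12.36 and 12.38, so each was slightly higher in LN (log2 LN/HN of 0.08, 0.07 and 0.02). With the genes placed by structure, the large subunit had a median of 0.050 (33 of 48 higher) and the small subunit 0.026 (15 of 26 higher).

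In the large subunit, the highest ratio belonged to *MRPL15*, a counterpart of a bacterial protein that is involved in the assembly of the subunit. Its log2 signal was 9.48 in HN and 9.80 in LN, which gives a log2 LN/HN of 0.32, with 0.30 and 0.34 from its 2 probes. The LN signal was thus 125% of the HN signal, just within the fold limit. *MRPL28*, another protein with a bacterial counterpart, followed with 7.97 in HN and 8.23 in LN (log2 LN/HN 0.26, probes 0.21 and 0.32). *MRPL32*, whose product is cleaved by the m-AAA protease before it joins the subunit, had 7.80 in HN and 8.05 in LN on its single probe (0.25). *MRPL51*, a mitochondria-specific protein, had 8.52 in HN and 8.75 in LN (0.24, with 3 probes from 0.19 to 0.31). All probes of these genes were higher in LN.

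The lowest of the large subunit was *MRPL22*, whose product lines the tunnel through which the nascent chain leaves the ribosome. Its single probe had log2 signals of 11.54 in HN and 11.24 in LN, a log2 LN/HN of -0.30, so that LN stood at 81.2% of HN. The mitochondria-specific *MRPL50* had 10.29 in HN and 10.09 in LN (-0.21), also from 1 probe. *MRPL48*, likewise mitochondria-specific, had 10.61 in HN and 10.41 in LN (-0.20), and both of its probes were lower (-0.22 and -0.19). *MRPL3*, a counterpart of a bacterial protein that reaches towards the peptidyl transferase center, had 9.73 in HN and 9.55 in LN (-0.18). *MRPL48* was therefore the one of these with a lower value in more than 1 probe, the others having a single probe each.

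Other proteins line or surround the exit tunnel, and those given here were chosen after their values were seen. *MRPL4*, which lines it together with *MRPL22*, had 9.34 in HN and 9.30 in LN (log2 LN/HN -0.04, both probes lower). *MRPL23* had 12.60 in HN and 12.77 in LN (log2 LN/HN 0.17). *MRPL47* had 10.24 and 10.36 (0.13), *MRPL17* 12.49 and 12.57 (0.08), and *MRPL24* 12.02 and 12.05 (0.02). *MRPL45*, which fastens the ribosome to the inner mitochondrial membrane, had 11.52 and 11.57 (0.05 from 3 probes).

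The stalk, which recruits translation factors to the large subunit, varied in sign. *MRPL10*, the stalk base protein, had log2 signals of 10.70 in HN and 10.59 in LN, a log2 LN/HN of -0.12 with both probes lower (-0.14 and -0.10). *MRPL11* had 11.38 and 11.34 (-0.04), a sign that turned without normalization between the arrays. *MRPL12*, whose product forms the stalk itself and also binds the mitochondrial RNA polymerase, had 9.67 and 9.74 (0.07). *MRPL53* had 8.65 and 8.67 (0.01), a sign that turned in 2 of the other settings, and its 4 probes ran from -0.18 to 0.13. All 4 genes lay within the range of a spot.

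Of the remaining large subunit genes, *MRPL41* had 13.74 in HN and 13.92 in LN (log2 LN/HN 0.18, probes 0.17 and 0.20). *MRPL44*, which has a fold like that of ribonuclease III, had 8.15 and 8.24 (0.09). *MRPL58*, a peptidyl-tRNA hydrolase built into the subunit, had 13.69 and 13.72 (0.04, a sign that turned in 1 of the other settings). *MRPL27* was equal to the second decimal (14.16 on both arrays). No other large subunit gene differed by more than 0.14 on the log2 scale, with *MRPL54* (0.14), *MRPL16* (0.12), *MRPL43* (0.10) and *MRPL52* (-0.11) toward the ends.

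In the small subunit, *MRPS7*, a head protein with a bacterial counterpart, was the highest. Its single probe had log2 signals of 11.19 in HN and 11.50 in LN, a log2 LN/HN of 0.31, with LN at 124% of HN. *MRPS18B*, a mitochondria-specific member of a family of related proteins, had 11.96 and 12.12 (0.16). *MRPS6* had 10.19 and 10.33 (0.14, probes 0.08 and 0.20), and *MRPS10*, of the subunit head, had 8.76 and 8.89 (0.13). *MRPS7* was the one small subunit gene higher in LN past the range of a spot.

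*MRPS2* was lowest among the small subunit genes and, in the values reported, among all mitoribosomal genes, although *MRPL22* was slightly lower in 4 of the other settings. Its single probe had 10.79 in HN and 10.48 in LN, a log2 LN/HN of -0.31, so that LN stood at 80.7% of HN. *MRPS5*, located where messenger RNA enters the subunit, had 12.10 and 11.89 (-0.21, 1 probe). *MRPS12*, a protein of the decoding center, had 8.74 and 8.64 (-0.11). *MRPS9* had the dimmest signals, 5.07 in HN and 4.89 in LN (-0.17), and its 2 probes gave -0.38 and 0.03. Its value depended on the probe, from -0.27 to 0.033 across the other ways of processing.

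*MRPS18A*, *MRPS18B* and *MRPS18C* are paralogs related to 1 bacterial protein and occupy different places on the ribosome. *MRPS18C*, which holds the bacterial position, had 11.36 on both arrays and a log2 LN/HN of -0.0021, the sign of which turned in 3 of the other settings. *MRPS18A* (0.08) and *MRPS18B* (0.16), as given above, were above 0. None of the paralogs passed the range of a spot.

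**Figure D2:**
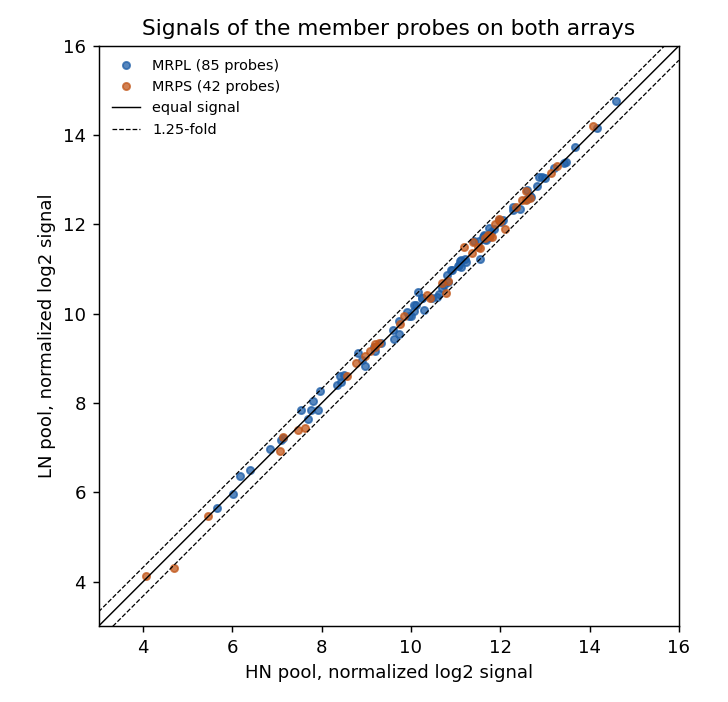
Normalized log2 signal of the 127 mitoribosomal probes on the HN array (horizontal) and the LN array (vertical), with MRPL probes in blue and MRPS probes in orange. The solid line marks equal signal and the dashed lines the fold limit, and the points follow the line of equal signal from the dimmest probe (4.07 in HN) to the brightest (14.60 in HN).

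The probes themselves gave the same picture as the gene means. Of 127 probes, 82 were higher and 45 lower in LN, with a median log2 LN/HN of 0.042, and over all 31986 probes with a ratio 49.8% were higher. A probe of *MRPL15* (0.34) was past the fold limit on the higher side and a probe of *MRPS9* (-0.38) on the lower side, as were 9.11% and 9.44% of all probes. Scatter was wider among dim probes, with an SD of 0.162 for the 19 probes under a mean log2 signal of 8, 0.138 for the 48 probes from 8 to 11, and 0.104 for the 60 brighter ones. The medians of these classes were 0.068, 0.058 and 0.034, each above 0.

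Where a gene had several probes, they could be set against each other. Of 39 such mitoribosomal genes, 28 had all probes on the same side of 0 (71.8%), 18 of them higher and 10 lower in LN. Over all genes with several probes the share was 58.6%. The median range between probes of a gene was 0.073 for the mitoribosomal genes and 0.170 for all genes. Both measures depend on the number of probes, which reached 13 per gene over all genes and 4 here, and on signal, and they were not matched for either. MRPL genes had the same sign in 24 of 29 cases and MRPS genes in 4 of 10, and 17 MRPL and 19 MRPS genes had a single probe. The widest ranges were those of *MRPS9* (0.414), *MRPL53* (0.312) and *MRPL19* (0.236, probes from -0.11 to 0.13 around a mean of 0.03).

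Genes were also grouped by the origin of their products. *MRPS18A*, *MRPS30* and *MRPS36* were left out of this grouping, and *MRPS18B* was counted as mitochondria-specific. Proteins with a bacterial counterpart were nearly balanced, with 23 of 44 genes higher in LN and a median log2 LN/HN of 0.022. In the other settings 23 to 30 of them were higher, with medians from 0.020 to 0.061, the highest without normalization. Mitochondria-specific proteins were higher in 23 of 28 genes (82.1%, against 49.3% of all genes), with a median of 0.057. In the other settings 21 to 24 of them were higher, with medians from 0.051 to 0.092. In the large subunit the medians were 0.027 (17 of 28 higher) and 0.057 (14 of 18 higher), respectively. These ran from 0.022 to 0.071 and from 0.051 to 0.094 in the other settings. In the small subunit they were -0.021 (6 of 16 higher) and 0.081 (9 of 10 higher), although the former turned to 0.021 without normalization and 0.029 after normexp, each with 10 of 16 higher. Without normalization the genes of like signal had a median of 0.042, above this group, whereas after normexp their median was 0.0017, below it. No test of the difference between the groups by origin was possible.

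Among the mitochondria-specific genes of the small subunit, *MRPS26* had log2 signals of 14.09 in HN and 14.21 in LN, and *MRPS27*, a protein with pentatricopeptide repeats, had 8.32 and 8.45. *MRPS25* had 9.84 and 9.96. The log2 LN/HN of each was 0.12, and that of *MRPS23* was 0.13. *MRPS35* was the lone lower gene of this group, with 8.09 in HN and 8.03 in LN (-0.06), and its sign turned in 1 of the other settings. Of the bacterial type in the same subunit, *MRPS24*, which lies beside *MRPS5* at the messenger RNA entrance, had 11.81 and 11.72 (-0.08), *MRPS15* had 12.67 and 12.60 (-0.07), and *MRPS14* had 12.48 and 12.54 (0.06). The sign of *MRPS24* and of *MRPS15* turned in 1 of the other settings each.

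**Figure D3:**
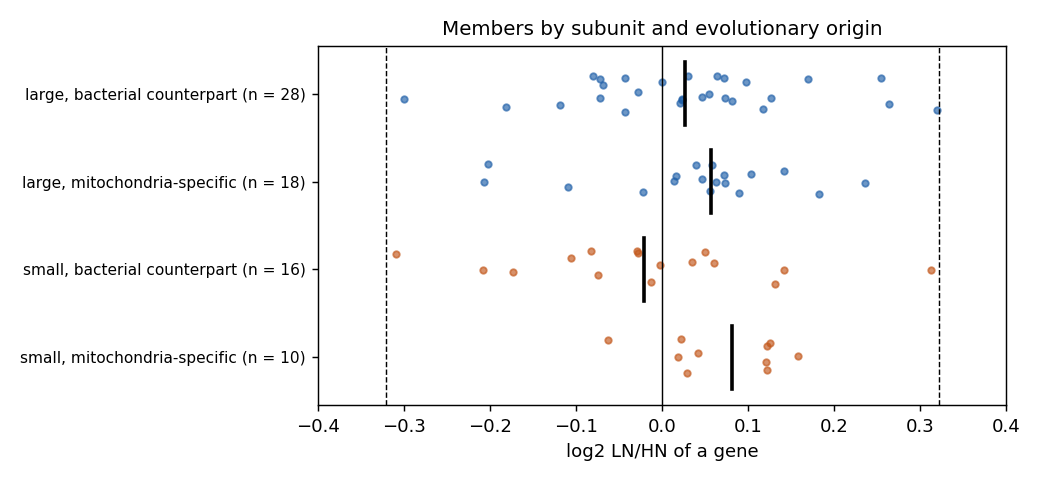
Log2 LN/HN of genes grouped by subunit and by whether the protein has a bacterial counterpart. Points are genes, black bars are medians (0.027, 0.057, -0.021 and 0.081 from top to bottom) and dashed lines mark the fold limit.

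A further 5 mitoribosomal proteins carry other symbols. *GADD45GIP1*, of the large subunit, had log2 signals of 11.38 in HN and 11.51 in LN (log2 LN/HN 0.13). Of the small subunit, *CHCHD1* had 10.82 and 10.92 (0.10), and *PTCD3*, a pentatricopeptide repeat protein at the messenger RNA entrance, had 8.31 and 8.40 (0.09). *DAP3*, a GTP-binding protein first described in cell death, had 7.39 and 7.43 (0.05). *AURKAIP1* was at 11.60 on both arrays (-0.00059, with a sign that turned in 3 of the other settings). Their median of 0.087 was on the same side as that of the MRPL and MRPS genes.

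*MRPL46* and *MRPS11* were the one pair of mitoribosomal genes that neighbor each other in the gene table. *MRPL46* had 10.04 in HN and 10.11 in LN (log2 LN/HN 0.07), and *MRPS11* 11.60 and 11.59 (-0.01, a sign that turned in 3 of the other settings). Both lay within the range of a spot.

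The 13 mitochondrial translation factors with a value (of 16 listed) had a median log2 LN/HN of 0.0063, with 8 higher, and the median lay between -0.031 and 0.031 in the other settings. At their ends were *MRRF*, the ribosome recycling factor (10.11 in HN and 9.95 in LN, -0.16), *OXA1L*, which inserts newly made proteins into the inner membrane (12.93 and 12.77, -0.15), *MTFMT*, which formylates the initiator tRNA (0.12), and *GFM2*, a recycling elongation factor (0.21). None was past the fold limit.

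For the assembly of the mitoribosome, of 25 with a value (of 28 listed), 15 were lower and 10 higher in LN, with a median of -0.063 and a range of medians from -0.12 to -0.039 in the other settings. The rRNA methyltransferases *MRM1* (-0.36) and *MRM2* (-0.32) were past the fold limit on the lower side, and the GTPase *GTPBP10* (0.35) on the higher side. These 2 lower and 1 higher of 25 genes compare with 9.11% and 8.85% of all genes. After normexp none of these passed the limit, with *MRM1* at -0.31, *MRM2* at -0.19 and *GTPBP10* at 0.12. *MRM2* was also inside it after cyclic loess, and *GTPBP10* after cyclic loess, subtraction of the 75th percentile, no normalization and with its brightest probe. The 3 probes of *MRM2* ran from -0.61 to 0.04. *TFB1M*, which methylates the small subunit rRNA, was at 0.26.

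Transcription and RNA processing of mitochondrial DNA was represented by 17 of 26 listed genes, 11 of which were higher, with a median of 0.035 (0.028 to 0.079 in the other settings). *POLRMT*, the mitochondrial RNA polymerase, was at -0.15 and the helicase *TWNK* at -0.11, both with a sign that turned in at least 1 other setting. The single-stranded DNA binding protein *SSBP1* was at 0.15 and *PTCD2*, a pentatricopeptide repeat protein, at 0.24. None was past the fold limit. The proteins encoded by mitochondrial DNA itself, which this ribosome makes, matched no probe and were not analysed here.

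Cytosolic ribosomal proteins gave medians close to those of the mitoribosome. Most of their genes were brighter than the mitoribosomal genes, and the lists were not matched for signal. For the large subunit (RPL), 35 of 46 genes were higher in LN with a median of 0.045, and for the small subunit (RPS) 24 of 30 with a median of 0.064. After subtraction of the 75th percentile in place of quantile normalization these became -0.0046 (21 of 46 higher) and 0.0018 (16 of 30 higher), while the median of all genes moved to -0.042 under the same subtraction. Both lists thus lay above the median of all genes in either scaling, although the sign for RPL changed. The corresponding medians of MRPL and MRPS genes stayed above 0 in all the settings tried. Across RPL genes the ends were *RPL10L* (-0.56, a dim gene at 5.84 in HN and 5.27 in LN), *RPLP0* (-0.09), *RPL3* (0.13) and *RPL15* (0.14), and across RPS genes *RPS26* (-0.03), *RPS21* (-0.03), *RPS13* (0.12) and *RPS23* (0.14). The signs of *RPS26* and *RPS23* turned in 1 of the other settings each.

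Respiratory complex I, which receives several of its subunits from the mitoribosome, leaned the other way. Of 37 listed nuclear genes with a value, 28 were lower and 9 higher in LN, with a median log2 LN/HN of -0.043 and a range of medians from -0.073 to -0.033 in the other settings. The lowest were *NDUFV1*, a catalytic subunit (12.48 in HN and 12.29 in LN, -0.19), and *NDUFA4L2* (9.17 and 8.98, -0.19). *NDUFA4L2* and *NDUFA4* carry names of this family without being structural subunits of complex I, and without them 8 of 35 genes were higher and the median was -0.043, a check chosen after the data were seen. The highest were *NDUFS3* and *NDUFS4*, each at 0.06. None passed the fold limit, so that complex I and mitoribosomal genes differed in the sign of their medians but both stayed within the same narrow limits. Most complex I genes were brighter than most mitoribosomal genes, and the lists were not matched for signal.

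**Figure D4:**
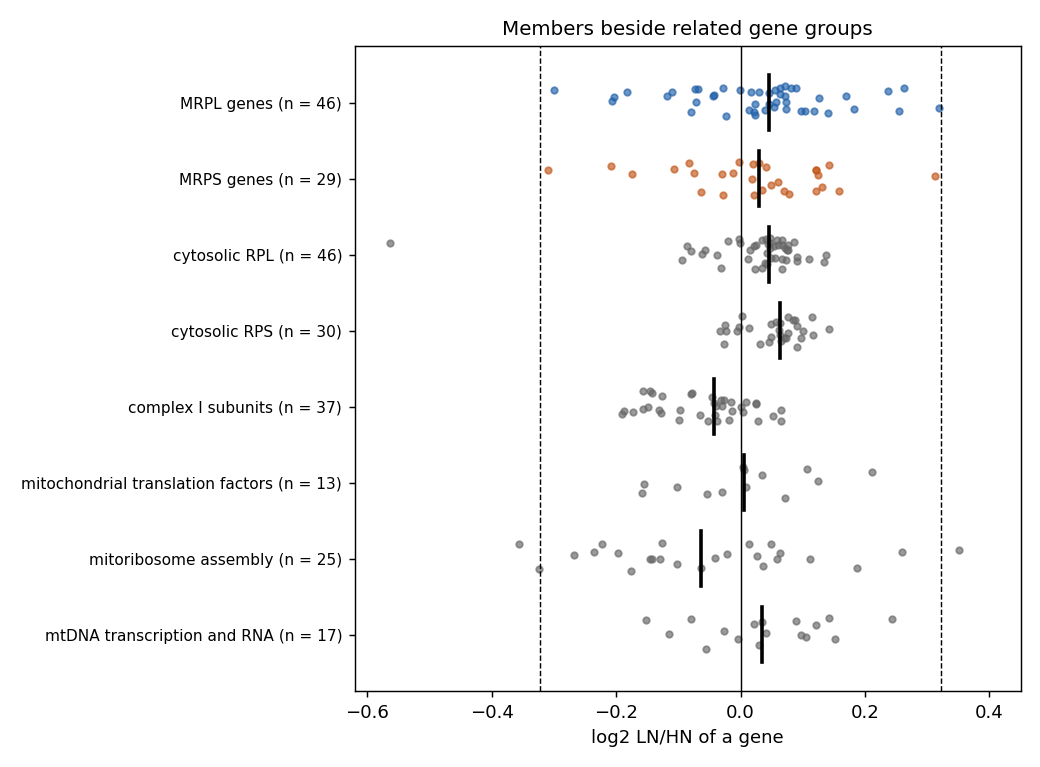
Log2 LN/HN of MRPL and MRPS genes beside cytosolic ribosomal proteins, complex I subunits and other genes of mitochondrial gene expression. Points are genes, black bars are medians and dashed lines mark the fold limit, with the bar of complex I at -0.043 and that of the assembly genes at -0.063 to the left of 0.

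The small lean of the mitoribosomal genes to the higher side kept its sign over the ways of processing the signals. The median of the MRPL genes lay between 0.041 and 0.080 and that of the MRPS genes between 0.026 and 0.063. The top of these ranges was reached without normalization, where 57 of the 75 genes were higher, but where genes of like signal also had a median of 0.042 and were higher in 61.6% of cases. Over 6 scalings of the arrays, 46 genes were higher in each and 15 lower in each, and the other genes changed sign.

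**Figure D5:**
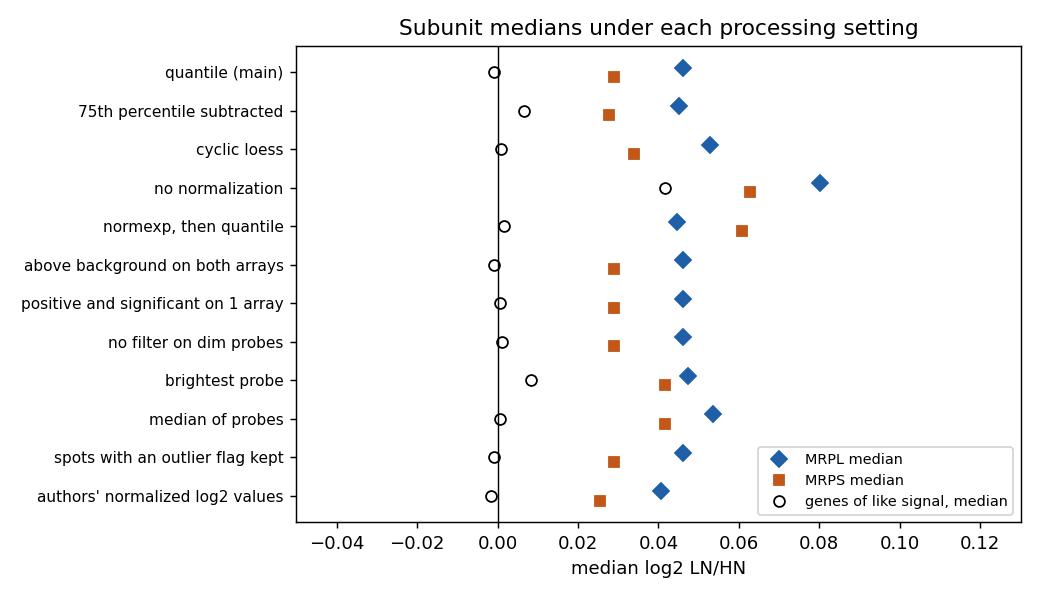
Median log2 LN/HN of MRPL genes (blue diamonds), MRPS genes (orange squares) and genes of like signal (open circles) under each way of processing. Both subunit medians lie above 0 in each row and above the open circle of the same row. Rows that differ only in the filter on dim or flagged spots could not change the subunit medians.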

How the data were processed

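Each pool was hybridized with Cy3 to 1 one-color Agilent bovine array. Per the labels and file headers, the authors deposited spot intensities from Agilent Feature Extraction 11.0.1.1 (version from the submitters' processing notes), background-corrected and without normalization between arrays, with flags for signal above background and outliers. The authors also deposited log2 values quantile-normalized in GeneSpring GX, for 30027 probes (their log2 scale was read from the values). Those were used as an alternative.

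Here the log2 intensities were quantile-normalized with limma 3.58.1 in R 4.3.3, and handled in Python 3.11.15 with numpy 2.4.6, pandas 2.3.3 and matplotlib 3.10.9. Spots with an outlier flag were removed (13, none of a mitoribosomal gene), and replicate spots averaged. Probes above background by the software's flag on either array were kept. Where 1 side was dim, it took the floor of that array's flagged signals, or its own value if higher, and a bright side at or under this gave no ratio. All mitoribosomal probes were measured on both sides. A gene's value is the mean of its detected probes, and summed marker signals are on the linear scale. Accessions were matched to symbols through the RefSeq gene table of assembly ARS-UCD2.0 (26742 of 43652 probes, 12603 symbols). It was used for names, for grouping probes into genes and for neighboring genes. Probes of an unmatched accession were grouped by that accession and counted as a gene. Signals of different probes depend on the probe, so their order is one of brightness on the array and not of transcript amount. The number of arrays limits the precision. The fold limit is the one the study used for its gene lists.

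Genes named were the 4 highest and 4 lowest MRPL and MRPS genes, the 3 with the widest range between probes, the stalk and MRPS18 groups, the mitoribosomal proteins with other symbols, the 2 highest and 2 lowest of each related gene list, and those without a match. Further ones were named after their values were seen, for their role. The genes and lists were chosen with earlier results of these data known. Steps were tested on simulated data with spot noise alone and changes planted at or above the fold limit. That test does not bear on smaller differences, such as those of the mitoribosomal genes, or on error between arrays or pools. The settings varied were the scaling (75th percentile subtracted, cyclic loess or none), normexp (offset 50) on median spot and background signals, the use of the authors' values, other filters on dim or flagged spots, other gene summaries, and other subunit assignments.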

Additional observations from a re-analysis of the deposited data

How the results depend on the processing

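Among 13 alternative settings, the medians of the MRPL and of the MRPS genes kept their sign, and no gene was past the fold limit on the lower side in any of the 11 settings that gave this count. The number of mitoribosomal genes past it on the higher side was 0 as reported, 1 (*MRPL15*) after subtraction of the 75th percentile, after cyclic loess or with the brightest probe of each gene, and 2 (*MRPL15* and *MRPS7*) without normalization or after normexp. Both stood just under the limit in the values reported (log2 LN/HN 0.32 and 0.31). The difference of the subunit medians became -0.016 after normexp, and was above 0 in the others, up to 0.025. Of 1395 single gene values under the alternatives, 1344 moved by less than the SD of a single spot and 51 by more. The filters on dim or flagged spots could change no mitoribosomal value, as all 127 probes were above background on both arrays and unflagged. Those settings thus add nothing to the stability of the mitoribosomal medians or single values. Normexp used the median in place of the mean spot signal. No replicate could be left out and no paired analysis was possible because each group has 1 array. Differences of single genes within the range of a spot cannot be told from spot noise where they rest on 1 dim probe, and variation among fetuses was not measured.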
